A study of Mus musculus with 25 samples.

Results

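D4M cells, 1 of 5 murine melanoma lines sequenced in culture, were compared with each of the 4 other lines, and every gene for which D4M lay above or below each of the 4 was collected. D4M gave 5 of the 25 libraries, and HCmel12, RET, WT31 and B16F10 luc2 gave 5 libraries each. A gene was placed above (or below) when limma's adjusted p was under 0.05 in all 4 comparisons and D4M was higher (or lower) in each. D4M lay above each of the 4 other lines in 3055 of 15247 tested genes (20%) and below each in 2398 (15.7%).

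D4M was derived from melanoma of Tyr::CreER;BrafCA mice with a further conditional allele, in which a Cre recombinase under the tyrosinase promoter switches on mutant Braf in melanocytes. HCmel12 comes from HGF-CDK4(R24C) mice, which express hepatocyte growth factor and a mutant cyclin-dependent kinase 4. WT31 comes from Tyr::NrasQ61K/°; INK4a-/- mice and RET from mice with a RET transgene under the metallothionein promoter (MT/RET). B16F10 luc2 is a luciferase-expressing subline of the B16 melanoma. All 25 cultures were untreated and sub-confluent (50%). D4M was grown in Advanced DMEM/F-12 with 5% fetal calf serum and glutamine. RET, WT31 and B16F10 luc2 had RPMI with 10% serum, and HCmel12 had RPMI with 10% serum and further supplements. Each genotype is represented by a single line, so that genotype, medium and the history of the line cannot be told apart for any difference given here.

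Melanocytes arise from the neural crest, and their identity is held by a group of transcription factors around MITF and SOX10. MITF binds short E-box sequences called M-boxes in front of pigment genes and switches on the enzymes and structural proteins of the melanosome, the organelle in which melanin is made. Melanoma cells can lose this program, and cells that have lost it often carry high levels of the receptor tyrosine kinases AXL and EGFR, AP-1 factors of the FOSL1 type and extracellular matrix genes, a state known as dedifferentiated or mesenchymal-like.

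Depth was nearly equal, with totals between 24199083 and 25843286 counts per library and between 24199083 and 25679885 in D4M. Levels are given as CPM, counts per 1000000 counts of a library after TMM scaling, and a count of 3, which corresponded to 0.133 CPM in D4M, was taken as the smallest amount the depth can show. This limit covers counting error only. A pair of libraries stood apart. D4M replicate 1 held traces of RNA of another line: among 38 genes with at most 1 count in every other D4M library and at least 50 CPM in another line, 16 had more than 3 counts in replicate 1, against at most 1 gene in the same check of any other D4M library. The trace was fitted by 0.308% of the RET profile and 0.053% of the HCmel12 profile. In replicate 5 the check rested on 21 genes, which summed to 0.86 CPM against 0.13 in the other D4M libraries. The fit there gave 0.063% of the HCmel12 profile and 0.058% of the B16F10 luc2 profile, so a smaller trace in replicate 5 is not excluded. HCmel12 replicate 4 differed from the mean of its 4 sister libraries with an SD of 0.382 on the log2 scale over 12729 genes, against 0.161 to 0.307 for the other 24 libraries. The p-values measure the spread between cultures of a line, not between tumours or animals. Without D4M replicate 1, 3050 genes lay above and 2284 below, and without HCmel12 replicate 4 these were 3168 and 2373.

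D4M differed from HCmel12 in 11054 of the tested genes (72.5%), from RET in 11757 (77.1%), from WT31 in 11605 (76.1%) and from B16F10 luc2 in 11854 (77.7%), with the higher and the lower genes nearly balanced in each. The same rule applied to the other lines, each against the remaining 4, gave 24.9% of the tested genes for WT31, 16.4% for HCmel12, 15.6% for B16F10 luc2 and 12.1% for RET, against 35.8% for D4M. The correlation of line means (log2 CPM, across the tested genes) lay between 0.711 and 0.749 for D4M with the others and between 0.832 and 0.955 among the other 4. When overlap between single libraries was not allowed, every D4M library lay above all 20 others for 2556 genes (16.8%) and below all 20 for 1756 (11.5%). The balance of the 2 directions depended on the scaling. With TMM factors 56.0% of the 5453 genes lay above, while with library size alone 2411 genes lay above and 3408 below (41.4% above). Log2 TPM gave 2364 and 2686 (46.8% above), a fit that also added a pseudocount of 1 and lacked D4M replicate 1. Library size alone also lowered the share of higher genes in each single comparison, from 50.8% to 39.6% against HCmel12, from 49.7% to 39.8% against RET, from 50.7% to 37.6% against WT31 and from 50.0% to 42.5% against B16F10 luc2. It shifted the median difference over all tested genes by -0.154 (B16F10 luc2) to -0.226 (WT31) on the log2 scale, and differences of that size can change side with the scaling.

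The distance from the nearest other line was often large. For the genes above, the ratio of mean CPM in D4M to the nearest line had a median of 2.14 (quartiles 1.37 and 7.42). In 1604 of them (52.5%) the ratio was at least 2, in 634 at least 10 and in 159 at least 100, and 263 had at most 3 counts in every library of the other lines. For the genes below, the ratio of the nearest line to D4M had a median of 1.64, 896 (37.4%) reached 2, 203 reached 10 and 40 reached 100, and 269 had at most 3 counts in all D4M libraries. HCmel12 was the nearest line for 34.0% of the genes below and WT31 for 30.1% of the genes above.

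**Figure D1:**
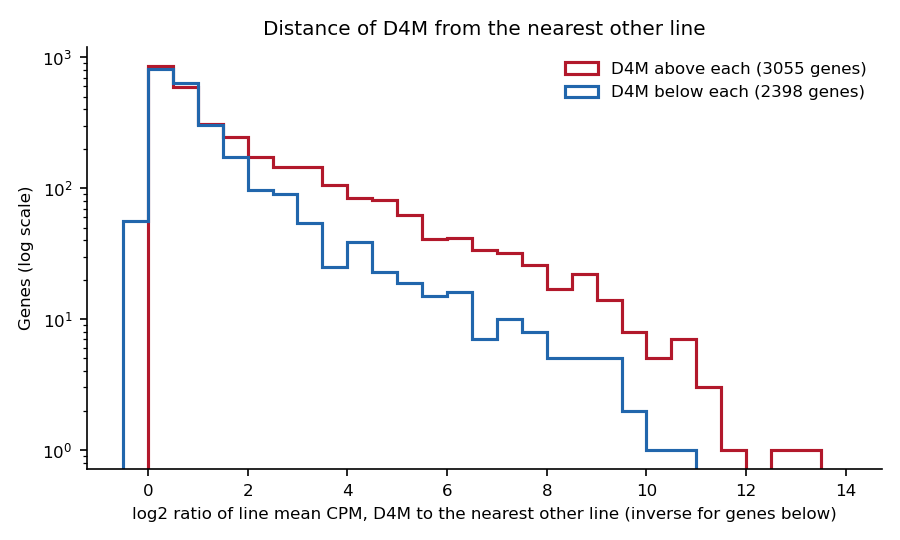
Number of genes (log scale) by the log2 ratio of line mean CPM between D4M and the nearest other line, with D4M over the other line for the 3055 genes above and the inverse for the 2398 genes below. The genes above extend further to the right, and 56 genes below lie under 0 because limma compares means of log2 values while the plot uses means of CPM with a floor of 3 counts.

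Most pigment and melanosome genes were lower in D4M than in every other line. Of 24 tested genes of melanin synthesis and melanosomes, 19 lay below each other line (79.2%) and 0 above, and the median of their mean log2 difference from the other lines was -8.01, against -0.02 over all tested genes. Tyr, the rate-limiting enzyme of melanin synthesis, had 0.81, 0.046, 0, 0 and 0.17 CPM in D4M replicates 1 to 5. The 20 libraries of the other lines had between 6.31 and 4490 CPM of Tyr (median 618.7), with HCmel12 lowest (6.31 to 30.1 CPM) and WT31 highest (3541 to 4490 CPM). No D4M library reached the lowest library of any other line, and the log2 difference was smallest against HCmel12 (-6.89, SE 0.924, adjusted p = 2.2e-07).

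Dct, which acts after Tyr in the same pathway, had 10.7, 0.096, 0.13, 0.091 and 1.19 CPM in the 5 D4M libraries and between 2348 and 8014 CPM elsewhere. Pmel, which forms the fibrils on which melanin is laid down, had 8.78, 0.27, 0.31, 0.31 and 0.72 CPM in D4M and between 570.8 and 6781 CPM elsewhere. For each of these 3 genes replicate 1 was the highest D4M library, and for Dct and Pmel replicate 5 came next. The D4M mean was 1229-fold below the nearest line for Dct, 375-fold for Pmel, 629-fold for Tyrp1, 1449-fold for Slc45a2, a melanosomal transporter and the gene with the largest ratio of all genes below, and 208-fold for Mlana. Trpm1, a cation channel gene and MITF target, was 427-fold lower than in RET, and Rab27a, which tethers melanosomes to the cytoskeleton, 407-fold lower than in HCmel12. Ratios of this size depend on D4M replicate 1: without it, 17 of the 2398 genes below had a ratio more than 1.5 times larger.

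The stretches in front of pigment genes show the sequence through which MITF is known to act. RefSeq promoter windows (build GRCm38.p6) were searched for the M-box core CATGTG on both strands in the 250 bases before the start. Windows were matched for 13 of the 19 pigment genes below, and 6 of the 13 (46.2%) held it, namely Tyr, Tyrp1, Dct, Trpm1, Oca2 and Slc24a5, against 1019 of 10987 tested genes with a window (9.3%). The 150 bases before the start of the pigment genes that the values above turn on are given from 5′ to 3′ on the strand of the gene, with the motif in capitals, for Tyr at chr7:87493513-87493662 (minus strand), Tyrp1 at chr4:80834063-80834212 (plus strand), Dct at chr14:118052247-118052396 (minus strand) and Trpm1 at chr7:64153685-64153834 (plus strand).
Tyr: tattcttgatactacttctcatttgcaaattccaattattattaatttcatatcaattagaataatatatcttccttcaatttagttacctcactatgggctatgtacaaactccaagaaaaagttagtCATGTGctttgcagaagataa
Tyrp1: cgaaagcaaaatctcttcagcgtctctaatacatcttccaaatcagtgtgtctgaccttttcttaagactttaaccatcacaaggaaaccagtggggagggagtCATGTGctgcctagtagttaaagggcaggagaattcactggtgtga
Dct: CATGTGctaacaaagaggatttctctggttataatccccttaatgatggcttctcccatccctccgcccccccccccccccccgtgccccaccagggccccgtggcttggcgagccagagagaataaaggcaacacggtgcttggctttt
Trpm1: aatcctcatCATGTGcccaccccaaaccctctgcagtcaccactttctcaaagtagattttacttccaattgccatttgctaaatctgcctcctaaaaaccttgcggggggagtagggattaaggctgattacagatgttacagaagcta
The motif began 21 bases before the start in Tyr, 46 in Tyrp1, 150 in Dct and 141 in Trpm1. A match describes the letters of the window and not occupancy by a factor.

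The transcription factors of the melanocyte lineage were split. Of 16 tested factors, 6 lay below (37.5%) and 5 above (31.2%). Mitf had 6.99, 5.91, 6.19, 6.26 and 6.56 CPM in D4M against 325.3 to 780.6 CPM in the other lines, a level 65.1-fold below WT31 (log2 difference -6.0, SE 0.226). The D4M libraries of Mitf lay close together and over the floor of 3 counts. Sox10, which activates Mitf, had 2.07, 0.13, 0.045, 0 and 0.51 CPM in D4M against 484.1 to 980.6 CPM elsewhere. Pax3, a further activator of Mitf, was only 8.41-fold lower than in B16F10 luc2 (21 CPM in D4M, 176.8 to 221.3 CPM as line means elsewhere). Alx1 was 303-fold lower and Sox11, not on the list but among the 12 largest ratios, 513-fold lower. Above each line were Sox2 (248.1 CPM against at most 10.5), Sox9 (71.8 against at most 4.58), Msx1 (22.7 CPM, at least 188-fold), Tfap2b (264.6 CPM, 2.04-fold over HCmel12, with means of 0.073 to 0.12 CPM in the 3 others) and Tfe3. Tfap2a, a factor that works with MITF in melanocytes, was 64.2 CPM in D4M and between 59.3 and 100.5 CPM elsewhere, and it did not differ from every line.

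Of 13 tested receptors and ligands of melanocytes, 6 lay below (46.2%) and 3 above (23.1%). Mc1r, the melanocortin receptor, had a mean of 0.21 CPM in D4M and 71.6 to 482.8 CPM elsewhere. Erbb3 had 0.49 CPM against 28.3 to 168.1. Kit, the receptor for stem cell factor, was at most 3 counts in every D4M library, and 0.74 CPM in RET to 530.7 CPM in WT31. Its ligand Kitl was higher in D4M (136.8 CPM, 4.19-fold over HCmel12), and so was the ERBB3 ligand Nrg1 (24.1 CPM, 198-fold over WT31). Ednrb, the endothelin receptor, had 0 counts in all 5 D4M libraries, but its line means were also low in HCmel12, RET and B16F10 luc2 (0.038 to 0.19 CPM) against 975.1 CPM in WT31, and it did not pass in every comparison.

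Receptors linked to the dedifferentiated state lay on the other side. Of 17 tested, 11 lay above each other line (64.7%) and 0 below. Axl had 1216, 1284, 1249, 1162 and 1183 CPM in D4M and between 11.1 and 70.7 CPM in the 20 other libraries. Its mean was 21.3-fold over HCmel12, the nearest line (log2 difference 4.42, SE 0.174, adjusted p = 5.7e-18). Egfr had 10.3, 11.5, 12.7, 11.7 and 16.3 CPM in D4M and at most 0.14 CPM in any other library, with at most 3 counts each in HCmel12, RET and B16F10 luc2. Pdgfra (59.5 CPM against at most 1.26), Wnt5a (6.80 CPM, at least 56.1-fold) and Nt5e (3.17 CPM, at least 26.2-fold) were high in D4M in the same way. Ngfr, which marks a neural crest-like state, did not follow: it had 1.91 CPM in D4M against 2.35 in RET, 3.34 in B16F10 luc2, 21.5 in HCmel12 and 60.9 CPM in WT31.

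**Figure D2:**
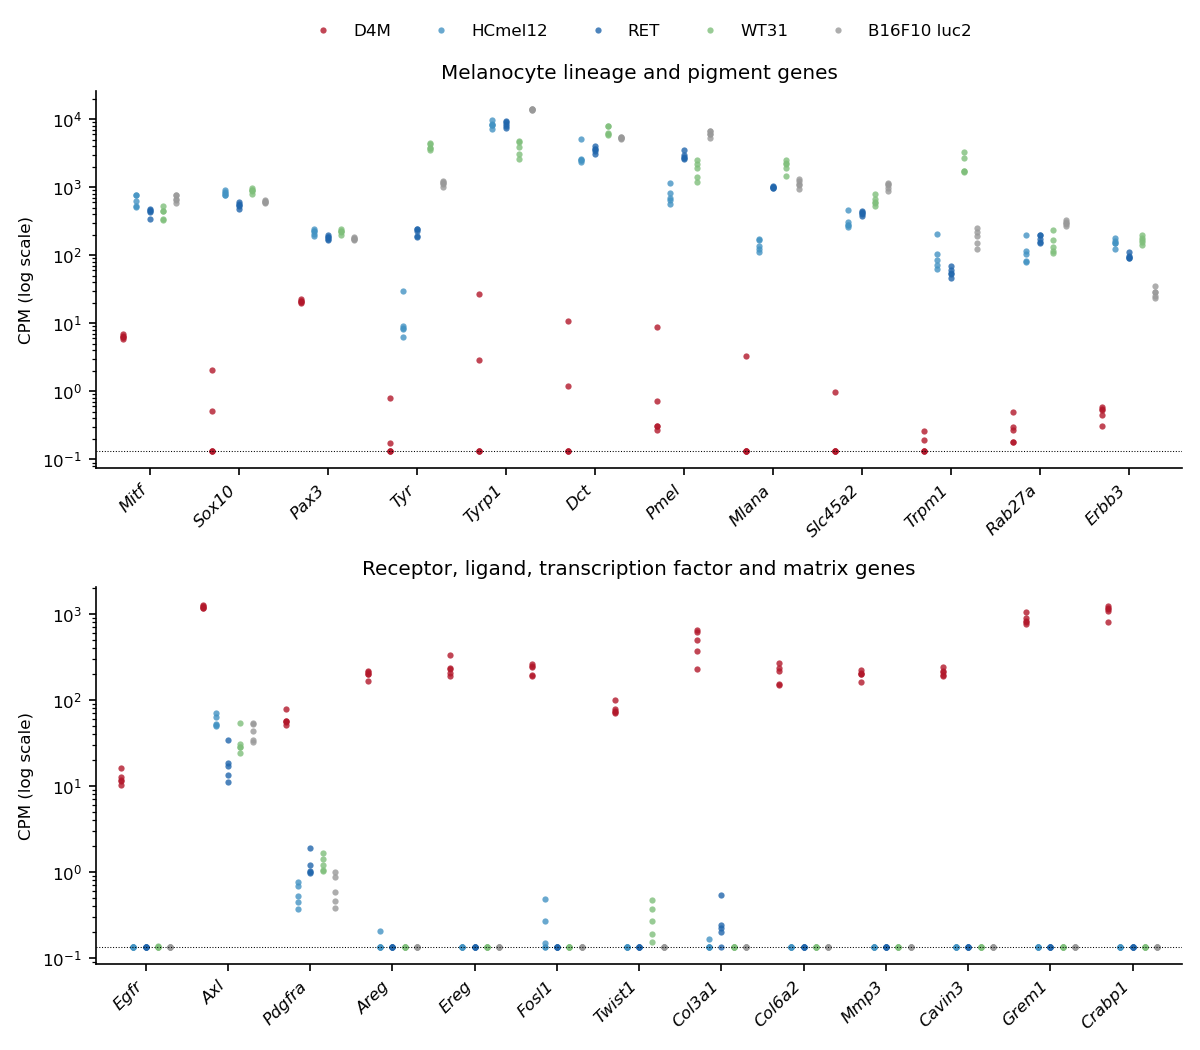
CPM (log scale) of each of the 25 libraries for 12 melanocyte lineage and pigment genes (upper panel) and 13 receptor, ligand, transcription factor and matrix genes (lower panel), coloured by line, with values under 3 counts drawn on the dotted line at 0.133 CPM. All D4M points lie under every other library in the upper panel and over every other library in the lower panel, and replicate 1 is the highest D4M point for Tyr, Tyrp1, Dct, Pmel and Mlana.

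The EGFR ligands Areg and Ereg had ratios among the 12 largest of all genes above. ERK, the kinase at the end of the BRAF pathway, induces its own inhibitors and a set of immediate early genes. Areg, an EGFR ligand, had 197.4, 202.1, 216.7, 213.4 and 165.9 CPM in D4M and at most 0.20 CPM in any other library (at least 1642-fold over B16F10 luc2, which had 0 counts). Ereg, a further ligand of the same receptor, had between 188.5 and 327.8 CPM in D4M and at most 0.039 CPM elsewhere (at least 1952-fold). Of 28 tested genes of ERK feedback and output, 18 lay above (64.3%) and 1, Phlda1, below. They included Dusp5, a nuclear ERK phosphatase (92.5 CPM, 38.1-fold over HCmel12), and Ccnd1, the D1 cyclin, with 2381 CPM in D4M and 1744 CPM in WT31, its nearest line (1.37-fold). Spry2, Spred1, Spred2 and Spred3, inhibitors of the pathway, were also above.

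AP-1 subunits followed. Fosl1, the FOS-type subunit most tied to sustained ERK activity, had 261.8, 247.5, 238.4, 196.6 and 188.0 CPM in D4M and at most 0.48 CPM elsewhere, 1027-fold over HCmel12. Other genes' transcripts hold 54.5% of its 31-base sequences, chiefly those of Ccdc85b, which overlaps it on the opposite strand and was 41.6 CPM in D4M against 9.02 to 18.1 CPM. Fosb (20-fold), Fosl2 (7.12-fold) and Jun (2.96-fold) were higher as well, and 6 of 11 subunits lay above in all (54.5%). Atf3 (3.53-fold lower) and Batf lay below. Hippo pathway genes were less uniform, with 13 of 30 above (43.3%) and 4 below, and the median of their mean log2 difference was 0.83. Igfbp3 led them with 5296 CPM in D4M against 92.5 CPM in WT31 and at most 0.25 CPM in the 3 others.

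The genes altered in these lines by breeding were read next. Braf had 24.7, 27.2, 26.4, 27.4 and 26.5 CPM in D4M, which overlapped WT31 (21.2 to 28.3 CPM; log2 difference 0.10, SE 0.080, adjusted p = 0.25) and lay under HCmel12, RET and B16F10 luc2 (49.2 to 74.8 CPM). The 3 comparisons differed by -1.40, -1.09 and -1.0 on the log2 scale. Counts per gene do not show single bases, so these values do not check the Braf mutation. Cdkn2a, the INK4a/ARF suppressor, had between 0 and 0.13 CPM in D4M, 0 in RET and B16F10 luc2, 2.65 to 3.23 CPM in WT31 and 181.1 to 220.7 CPM in HCmel12. Its neighbour Cdkn2b had 0 counts in all 5 D4M libraries and in RET, a single count in B16F10 luc2, and 9.07 to 56.1 CPM in HCmel12 and WT31. At this locus D4M, RET and B16F10 luc2 all had levels at or near 0. Trp53 was 250.3 CPM ± 13.8 (SD, n = 5) in D4M, higher than in RET, WT31 and B16F10 luc2 by 0.29 to 0.39 on the log2 scale and not significantly different from HCmel12 (0.13, adjusted p = 0.089). Nras and Cdk4 did not lie apart from the other lines. Hgf, the ligand carried as a transgene by the HCmel12 mice, reached 94.8 CPM in HCmel12, against 2.63 CPM in D4M and line means of at most 0.0076 CPM in the 3 others. Gak (105 CPM) lay within the range of the other lines, and Srp72 (237.8 CPM) was 1.15-fold over RET, a difference that library size alone removed. Of 23 tested drivers and suppressors, 4 lay above, Ccnd1, Mdm2 and Pik3ca among them, and Ctnnb1 alone lay below (17.4% and 4.3%, against 20% and 15.7% of all tested genes). Ctnnb1, beta-catenin, had 560 CPM in D4M and 1091 to 1271 CPM as line means elsewhere.

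Mesenchymal transcription factors were high in D4M. Of 20 tested, 14 lay above (70.0%) and 2 below. Twist1 had 78.6, 99.2, 74.6, 70.6 and 72.4 CPM in D4M, at most 0.47 CPM in WT31 and 0 counts in the 15 other libraries. Zeb1 (106.5 CPM, 101-fold over WT31), Foxc2 (46.0 CPM, 86.2-fold over B16F10 luc2) and Tbx18 (19.5 CPM, at least 161-fold) were high too. Zeb2, which is expressed in differentiated melanocytes and gives way to ZEB1 in dedifferentiated cells, was lower in D4M than in every other line, though only 1.28-fold against RET (99.8 and 127.7 CPM). Cdh2, N-cadherin, was 1.56-fold over HCmel12. Cdh1, E-cadherin, had 0.14 CPM in D4M and 0.36 to 7.26 CPM as line means elsewhere.

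The extracellular matrix genes were mostly higher too. Of 26 tested collagen genes 16 lay above (61.5%) and 4 below (15.4%), and of 35 tested matricellular and matrix glycoprotein genes 22 lay above (62.9%) and 2 below. Col3a1, a fibrillar collagen of soft tissue, had 371.4, 650.7, 226.7, 490.5 and 622.2 CPM in D4M and at most 0.54 CPM elsewhere. The D4M libraries thus spread almost 3-fold among themselves, and the difference was far beyond that spread (log2 11 against RET, SE 0.812). Col5a2 (266.0 CPM, 2066-fold), Col6a2 (204.3 CPM, at least 1685-fold) and Col6a3 (773.1 CPM, 447-fold) belong to fibril and microfibril assemblies. Col1a1 was nearer to the others, with 143.7 CPM in D4M and 30.8 CPM in RET (4.66-fold). Spp1, osteopontin, reached 18240 CPM in D4M against 43.0 CPM in HCmel12, and Bgn, a small proteoglycan, 1758 CPM against at most 1.48. Smoc2 was at least 2409-fold higher. Col9a3, Col11a2, Col14a1 and Col15a1 lay below, as did Fbln1 (7.25-fold) and Fbln5 (2.44-fold).

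Proteases that cut the matrix, and their inhibitors, lay above in 15 of 28 cases (53.6%) and below in 3. Mmp3, stromelysin 1, had 201.6, 161.0, 220.8, 206.7 and 197.3 CPM in D4M, 0 counts in HCmel12, RET and WT31 and at most 0.041 CPM in B16F10 luc2. Mmp10, stromelysin 2, lies beside it on chromosome 9 and had 62.2 CPM in D4M (at least 513-fold). Plau, urokinase, had 1337 CPM (715-fold over RET), and the inhibitor Timp1 had 588.5 CPM (30.0-fold over B16F10 luc2). The promoters of this group were searched for the AP-1 site TGACTCA on both strands, since stromelysin genes are known AP-1 targets. Of the 12 matched genes above, 4 held it in the 250 bases before the start (33.3%), namely Mmp3, Mmp10, Plaur and Adam19, against 4.1% of tested genes. Over all genes above the share was 6.4%. Other lists above held it in 2 of 13 ERK output genes (15.4%), 3 of 22 interferon genes (13.6%) and 1 of 13 collagen genes. It was found in 0 of 13 matricellular genes, 0 of 14 class I genes and 0 of 4 AP-1 subunits above. The windows of the stromelysin genes, at chr9:7445672-7445821 and chr9:7502192-7502341 (both plus strand), carry the AP-1 site in capitals.
Mmp3: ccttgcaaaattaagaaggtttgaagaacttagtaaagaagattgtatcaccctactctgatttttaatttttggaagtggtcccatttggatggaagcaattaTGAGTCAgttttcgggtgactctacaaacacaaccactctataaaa
Mmp10: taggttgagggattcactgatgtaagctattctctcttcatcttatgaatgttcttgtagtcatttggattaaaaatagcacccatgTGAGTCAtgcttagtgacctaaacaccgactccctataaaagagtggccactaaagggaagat
It began 46 bases before the start in Mmp3 and 63 in Mmp10, in both cases as its reverse complement. A SOX site (ACAAAG) and a TEAD site (GGAATG) were searched as well, and all tested genes held them in 14.7% and 12.9% of cases. Of the matched pigment genes below, 4 of 13 held the SOX site and 0 the TEAD site.

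Integrins, caveolae and junctions completed the surface. Of 19 tested integrins 12 lay above (63.2%) and 1, Itga9, below (31.8-fold lower than WT31). Itga3 had 527.3 CPM in D4M against 5.29 in HCmel12, its nearest line, and Itgb1, the common beta chain and named after its value was seen, had 1666 CPM against 854.2 in WT31. Caveolae are flask-shaped pits of the cell membrane built by caveolins and cavins. Of 8 tested genes 5 lay above (62.5%) and 0 below. Cavin3 had 215.0, 242.4, 190.9, 208.2 and 195.8 CPM in the D4M libraries, while the other lines held a single count between them (at least 1736-fold). Cavin1 (10.3-fold) and Ehd2 (11.9-fold) were also higher. Of 17 tested cadherin and junction genes 8 lay above, with Gja1, connexin 43, at 932.8 CPM against 154.8 in WT31, and Cdh19, a Schwann cell cadherin, below (0.090 CPM against at least 31.8).

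Several of the largest ratios belonged to genes not described so far. Crabp1, which binds retinoic acid in the cytoplasm, had 1090, 1145, 802.2, 1160 and 1227 CPM in D4M and at most 0.12 CPM in the 20 other libraries, which had at most 3 counts each (at least 8948-fold). Grem1, a secreted BMP antagonist, had 795.0, 883.6, 1040, 827.4 and 770.9 CPM against at most 0.12 CPM (at least 7121-fold). Nrn1, neuritin, followed with 374.4 CPM (at least 3088-fold). Cd93, a surface glycoprotein of endothelial and myeloid cells, had 601.5 CPM (2262-fold over WT31). Among the genes below, Cntfr, the receptor for ciliary neurotrophic factor, had 0.28, 0, 0, 0.044 and 0.085 CPM in D4M and 115.6 to 285.6 CPM elsewhere (968-fold). Ptgds, prostaglandin D synthase (703-fold), Tspan10 (549-fold) and the carbonic anhydrase Car14 (404-fold) were also among the 12 with the largest ratios.

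Genes listed under VEGF and angiogenic factors lay above in 17 of 29 cases (58.6%) and below in 2. The list mixes ligands and receptors, and Thbs1, Thbs2, Sema3a and Sema3f are among those above. The count therefore gives no direction for angiogenesis. Flt1, VEGF receptor 1, had 171.0, 188.9, 218.0, 199.7 and 220.8 CPM in D4M and at most 0.19 CPM elsewhere. Fgf2 (51.1 CPM, 123-fold), Sema3a (428.0 CPM, 1095-fold) and Cxcl12 (8.38 CPM, at least 69.1-fold) differed similarly. Vegfa had 72.0, 60.2, 80.5, 74.4 and 62.6 CPM in D4M and was 1.86-fold over HCmel12, whose replicate 4 (68.8 CPM) overlapped the D4M libraries while its 4 other libraries reached at most 34.2 CPM. Vegfc, the lymphatic growth factor, was 13.8-fold lower than in RET and Vegfb 1.52-fold lower than in B16F10 luc2.

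In the TGF-beta and BMP pathway 14 of 39 tested genes lay above (35.9%) and 2 below. Inhba (105.1 CPM, 165-fold) and Inhbb (18.4 CPM, at least 152-fold), the chains of activins, were above, while Id2, a target of BMP signals, was 8.20-fold lower and the BMP mediator Smad9 14.8-fold lower. In the Wnt pathway 8 of 37 lay above (21.6%), a share like that of all genes, with Wnt7b at 53.5 CPM (at least 442-fold), and 4 below, among them Axin2 (1.75 CPM, 4.19-fold under HCmel12), a direct target of beta-catenin signalling. Of 17 Notch genes 9 lay above (52.9%), with Dll1 (22.3 CPM, 131-fold) and Dlk1 (32.8 CPM, 271-fold). Jag2, Rfng and Hey2 lay below (17.6%, against 15.7% of all tested genes). Guidance genes lay above in 17 of 39 (43.6%, against 20% of all tested genes) and below in 6 (15.4%, like all tested genes). Slit3 (at least 175-fold) and Ntn1 (134-fold), secreted guidance cues, were high, and Robo1, a receptor for SLIT proteins, was 39.1-fold lower than in HCmel12.

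Interferon-stimulated genes were mostly higher in D4M. Type I interferon signals through a complex that includes STAT2 and IRF9, which binds interferon-stimulated response elements and induces antiviral genes such as the oligoadenylate synthetases. Of 39 tested genes 32 lay above each other line (82.1%) and 0 below, with a median mean log2 difference of 3.04. Ifi44 had 20.6, 10.3, 16.4, 40.3 and 33.9 CPM in D4M and at most 1.17 CPM elsewhere, 68.4-fold over HCmel12. Oasl2 had 54.8, 35.4, 42.4, 94.1 and 79.7 CPM in D4M and at most 5.69 CPM elsewhere (27.9-fold). Oas3 had 2.44, 1.24, 3.65, 6.32 and 4.70 CPM in D4M and at most 0.12 CPM elsewhere (at least 30.3-fold). The D4M libraries spread about 4-fold for Ifi44 and replicates 4 and 5 were the highest for all 3 genes, with replicate 2 the lowest, yet no library of another line reached them. In HCmel12, replicate 4 held the highest value of Ifi44 (1.17 CPM against 0.08 to 0.24 in the others) and of Oasl2 (5.69 against 0.73 to 1.75). Without that library 32 genes lay above again.

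The other lines were not equal to each other. Isg15, an antiviral ubiquitin-like protein, was 27.9 CPM ± 11.3 (SD, n = 5) in D4M, 5.55 in RET, 2.93 in HCmel12, 0.81 in B16F10 luc2 and 0.27 CPM in WT31, a gene named after its values were seen. Irf7, named in the same way, was 21.1-fold over HCmel12. The element GAAANNGAA was searched on both strands in the promoter windows. Of 22 matched interferon genes above, 12 held it (54.5%), against 7.3% of tested genes, while of 13 pigment genes below 0 held it. Other lists above held it too, in 4 of 13 matricellular and matrix glycoprotein genes (30.8%), 3 of 14 MHC class I genes (21.4%) and 1 of 4 AP-1 subunits. Collagen genes and ERK output genes above each had 1 of 13 with the element (7.7%), and matrix protease genes 0 of 12. The element was thus not limited to the interferon genes. The windows of Isg15 at chr4:156200819-156200968 and Oas3 at chr5:120777660-120777809 (both minus strand) show it in capitals, where overlapping copies run together.
Isg15: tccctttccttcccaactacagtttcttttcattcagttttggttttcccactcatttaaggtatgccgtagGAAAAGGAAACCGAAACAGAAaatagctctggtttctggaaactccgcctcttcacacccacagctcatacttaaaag
Oas3: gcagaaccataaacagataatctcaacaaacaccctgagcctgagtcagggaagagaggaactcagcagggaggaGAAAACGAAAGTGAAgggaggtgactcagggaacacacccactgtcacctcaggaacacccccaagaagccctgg
Isg15 held 3 overlapping copies, the nearest of which began 66 bases before the start, and Oas3 held 2, the nearest at 69 bases.

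MHC class I genes, which display peptides to T cells and are induced by interferon, were also higher. Of 23 tested genes 16 lay above (69.6%) and 0 below. Tap2, a subunit of the peptide transporter, had 9.70, 11.7, 10.0, 11 and 9.33 CPM in D4M and 0.15 to 2.38 CPM elsewhere (7.05-fold over HCmel12). Psmb8, an immunoproteasome subunit, was 8.87-fold, and the class Ib genes H2-T23 and H2-M3 11.3-fold and 10.8-fold, over HCmel12. B2m, the light chain, and H2-K1, a classical heavy chain, were named after their values were seen, with 1782 CPM ± 168.5 and 167.6 CPM ± 30.2 in D4M (SD, n = 5) against line means of at most 619.1 and 24.6 CPM. NF-kB targets and chemokines lay above in 11 of 21 cases (52.4%) and below in 0. Ccl2, the monocyte chemokine, had 39.1, 47.2, 47.4, 40.7 and 38.6 CPM in D4M and at most 0.079 CPM elsewhere (at least 351-fold). Ptgs2, cyclooxygenase 2, was 852-fold and Vcam1 725-fold over its nearest line.

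**Figure D3:**
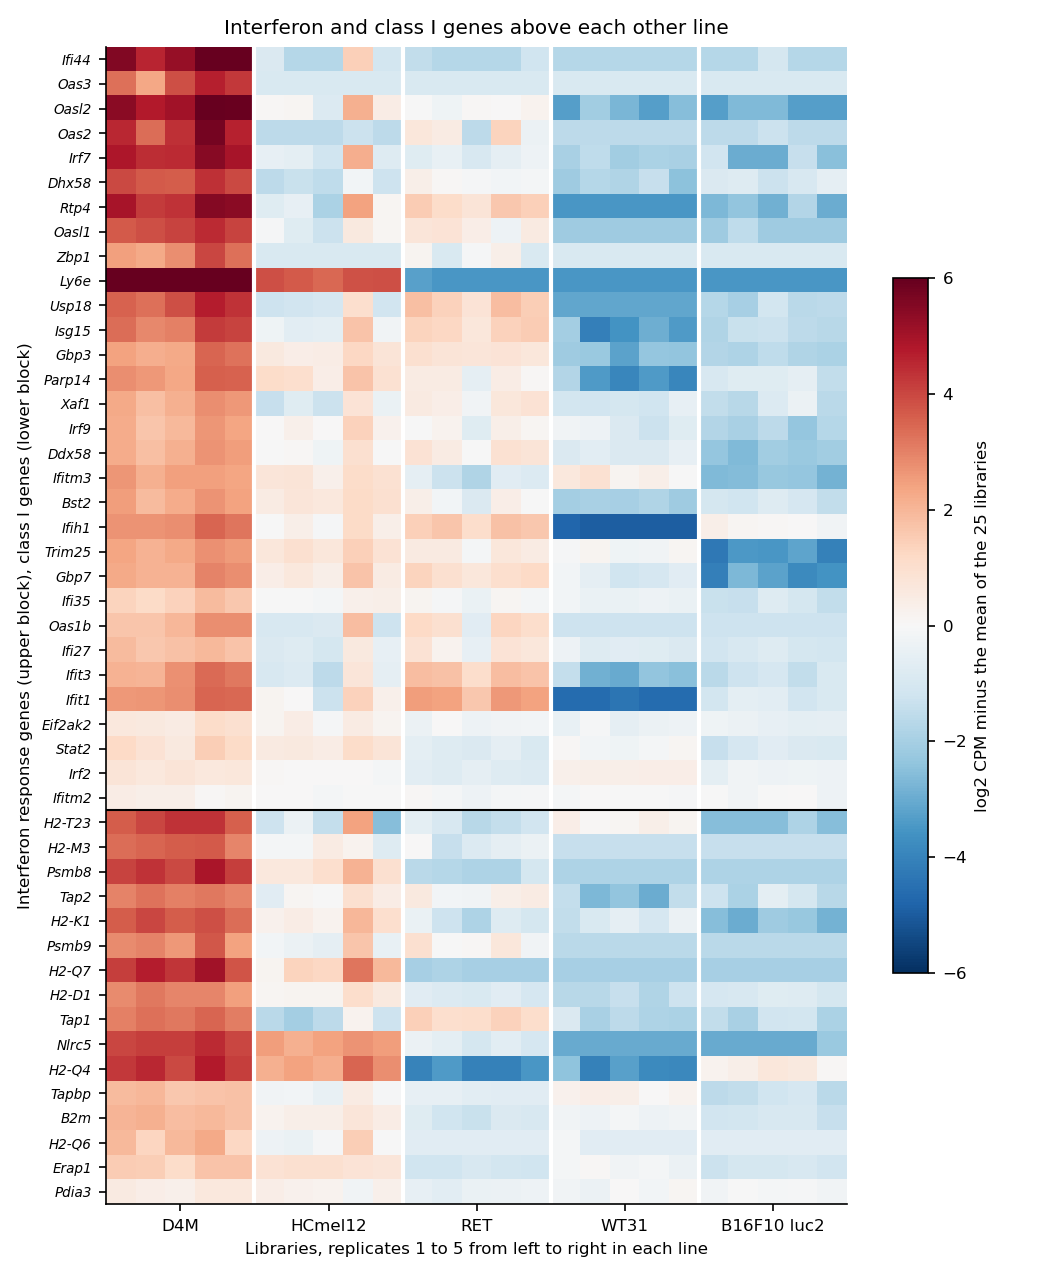
Log2 CPM of each library minus the mean of the 25 libraries (colour) for 31 of the 32 interferon response genes and, under the black line, the 16 class I genes above each other line. The first 5 columns, D4M, are red in every row, and the fourth HCmel12 column is redder than its neighbours in many rows. The genes were chosen by these values, so the picture describes them and tests nothing.

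Respiratory chain genes were lower in D4M by small amounts. Of 37 tested genes of oxidative phosphorylation 25 lay below (67.6%) and 1 above, Ndufa8, and the median mean log2 difference was -0.53. Most differences were small, and with an absolute log2 difference of at least 1 only 2 of these 25 lay below. Ndufa4, a subunit of the cytochrome oxidase complex, was an exception with 32.2 CPM in D4M against 202.4 in WT31 (6.28-fold). Cox7a2 (1.61-fold) and Ndufa1 (1.56-fold) came next, and the other respiratory genes below had smaller ratios. Ppargc1a, the PGC1-alpha coactivator that drives mitochondrial genes and is itself a target of MITF in melanoma, had 3.54, 2.62, 2.94, 2.13 and 3.15 CPM in D4M and 23.6 to 191.6 CPM elsewhere (10.9-fold). With DESeq2's size factors 23 of the group lay below.

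Other metabolic groups were read in the same way. Glycolysis and hypoxia genes lay above in 11 of 30 (36.7%) and below in 4. Egln3 (28.2-fold) and the lactate carrier Slc16a1 (2.63-fold) were higher, and Ldhb (10.9-fold) and Hk2 (1.75-fold) were lower. Sterol and fatty acid genes gave 3 above and 1 below of 31 (9.7% and 3.2%, against 20% and 15.7% of all tested genes). Amino acid stress genes lay above in 7 of 29 (24.1%) and below in 3 (10.3%), shares not far from those of all tested genes. Nupr1, Ddit4 and Stc2 were among the 7 above. Library size alone left 4 of these 7. Of the oxidative stress and xenobiotic genes 6 of 34 lay above and 6 below (17.6% each), near the 20% and 15.7% of all tested genes. Aldh3a1 (113.9 CPM, 89.1-fold), Nqo1 (125.0 CPM, 65.6-fold), Cyp1b1 and Cyp1a1, several of which the aryl hydrocarbon receptor is known to induce, were among the genes above. Those below were Gstm2, Gsta1, Hmox1, Gstm5, Txnrd1 and Sod2. Other genes, chiefly Gsta2, hold 92.9% of the 31-base sequences of Gsta1, so its single value is uncertain. Genes of S phase and mitosis lay below in 7 of 37 (18.9%) and above in 2 (5.4%), against 15.7% and 20% of all tested genes, and library size alone placed 11 below. Cdk2 was 4.11-fold lower than in WT31, but it overlaps Pmel on the opposite strand, and Pmel itself was 375-fold lower in D4M. The strand setting of the counts was not given in the sources used here. p53 target genes lay above in 10 of 25 (40%), with Plk3 2.74-fold and Mdm2 1.28-fold over the nearest line, but library size alone left 5.

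**Figure D4:**
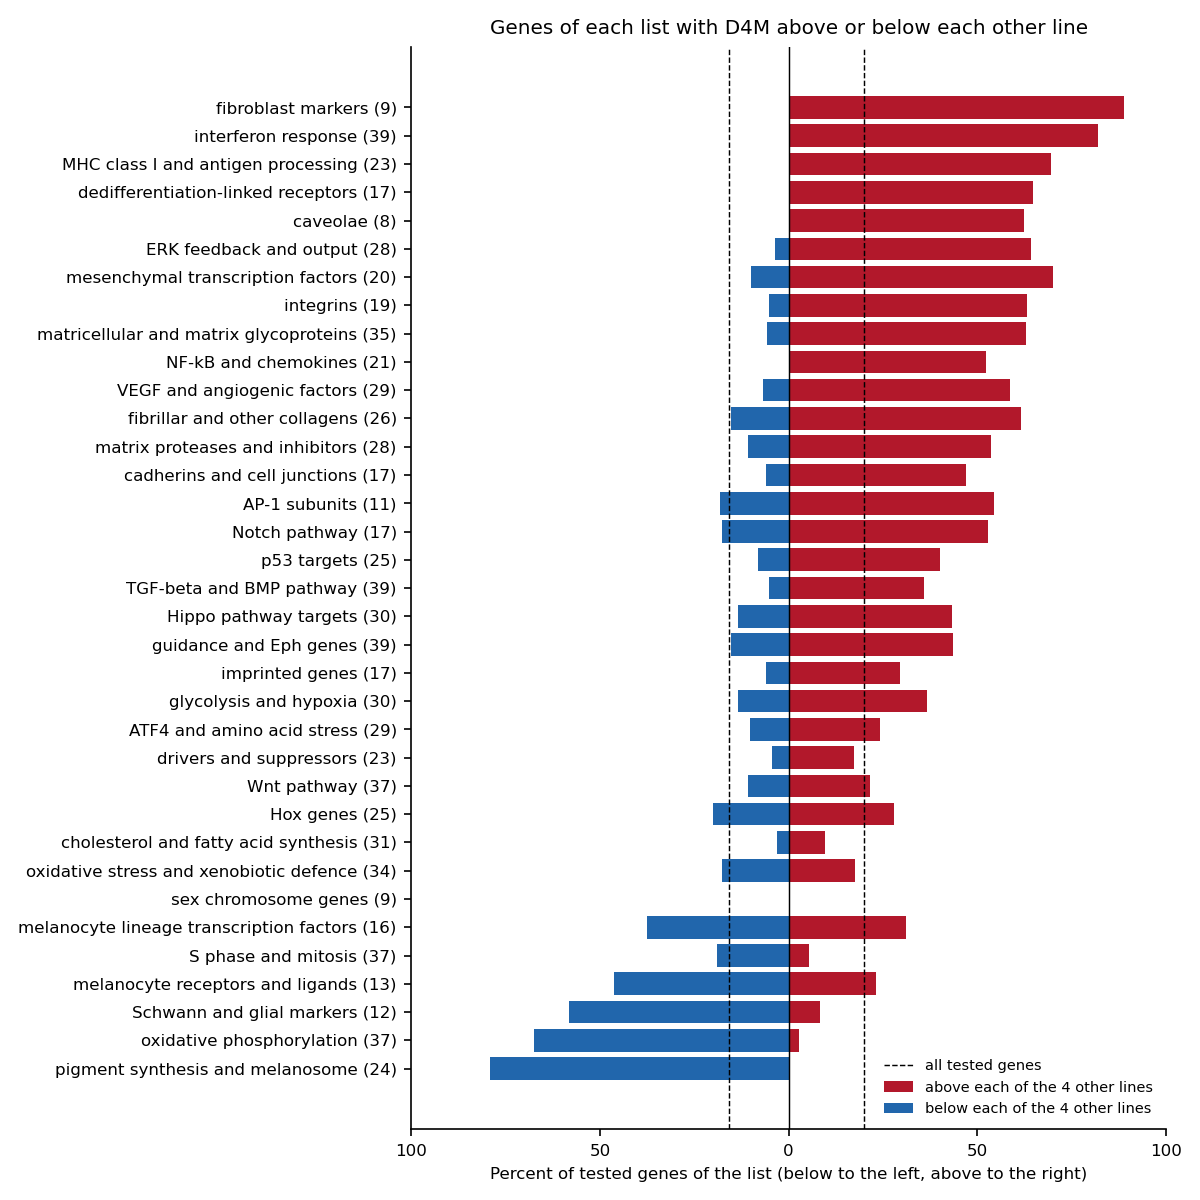
Percent of tested genes (number in brackets) of each list for which D4M lay above (red, to the right) or below (blue, to the left) each of the 4 other lines, with dashed lines at 20% and 15.7% for all tested genes. The pigment genes reach 79.2% below, the interferon genes 82.1% above. Lists with under 8 tested genes are left out.

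Hox genes mark position along the body axis and keep their pattern in culture. Of 25 tested, 7 lay above (28%) and 5 below (20%), shares not far from the 20% and 15.7% of all tested genes, and 15 listed Hox genes had at most 3 counts in every D4M library. Hoxd8 (45.3 CPM, 134-fold), Hoxd9 (10.6 CPM, at least 87.6-fold), Hoxb4 (12 CPM, 87.0-fold) and Hoxc6 (8.78 CPM, 28.8-fold) were higher in D4M. Hoxa2, Hoxa3 and Hoxa5, neighbours on chromosome 6, were all lower, with Hoxa3 at 0.14 CPM against at least 1.28, and Hoxb9 was 6.66-fold lower than in RET. Of 17 tested imprinted genes 5 lay above (29.4%, against 20% of all tested genes), among them Peg3 and Snrpn at low levels. Sgce alone lay below (5.9%). Genes of the Y chromosome were present in D4M (Ddx3y 59.0 CPM) and in WT31 (67.8 CPM) and were at most 0.040 CPM as line means in the 3 others, so that none lay above all 4 lines.

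Chromosome 6 stood out in the map of the genes. Of its 776 tested genes 25.6% lay below and 9.9% above, while on the other autosomes between 7.5% and 20.2% lay below and between 16.7% and 28.2% above. The median log2 difference over the genes of chromosome 6 was -1.04 against RET and -0.81 against B16F10 luc2 but -0.18 against HCmel12 and WT31 each. Mitf, Braf, Met and the Hoxa genes lie on it. DNA copy number was not measured. Chromosomes 14 and 18 had the largest shares above (28.2% and 27.1%).

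**Figure D5:**
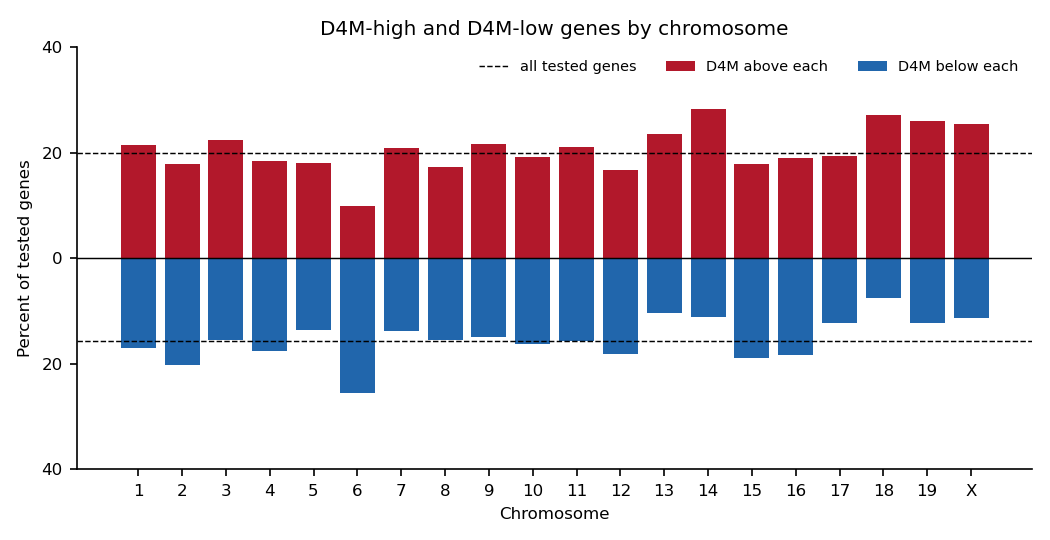
Percent of the tested genes of each chromosome for which D4M lay above (red, upward) or below (blue, downward) each of the 4 other lines, with dashed lines at 20% and 15.7%. Chromosome 6 has the longest blue bar (25.6%) and the shortest red bar (9.9%).

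Neighbouring genes were called together in several places. Along the 13238 tested protein-coding genes with a position, 11 runs of at least 6 consecutive genes lay above and 7 lay below. The genes of these runs were chosen after their values were seen. A run of 8 genes on chromosome 1 (173630917 to 174248450, GRCm38) held 7 interferon-inducible genes of the Ifi200 family, Ifi209, Ifi207, Ifi204, Mndal, Ifi211, Ifi203 and Ifi205. Ifi207 had 39.5 CPM in D4M (at least 326-fold) and Ifi204 83.5 CPM (77.5-fold over RET). Members of this family share sequence, 78.9% of the 31-base sequences in the case of Ifi211, so that single members are less certain than the group. A run of 8 on chromosome 7 (104244457 to 105482300) held Trim34a, Trim5, Trim12a, Trim12c, Trim30a and Trim30d, antiviral TRIM proteins, and ended with Cavin3. Here too sequence is shared with other genes, 68.5% of the 31-base sequences for Trim34a, 53.3% for Trim5 and 48.1% for Trim12c. A further run on chromosome 1 (40225080 to 40790687) held the interleukin 1 receptor genes Il1r1 (42.5 CPM, 155-fold over WT31), Il1rl2, Il1rl1 and Il18rap (45.8 CPM, 302-fold over RET). On chromosome 3, 6 consecutive genes of the S100 family lay above, among them S100a4 (950.2 CPM, 793-fold) and S100a6 (800.9 CPM, 147-fold). Below lay a run of 6 on chromosome 4 (41517691 to 41769474). In it Dnaic1 (0.27 CPM, 111-fold), Enho (0.14 CPM, 571-fold) and Cntfr (968-fold) stood side by side between Fam219a (3.24-fold) and Il11ra1 (3.07-fold). The D4M means of Dnaic1 and Enho had SDs of 0.60 and 0.23 CPM, larger than the means themselves. Single libraries thus weigh heavily in both ratios.

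Marker genes of other cell types were read to check the label. Of 9 tested fibroblast markers 8 lay above in D4M (88.9%) and 0 below: Col3a1, S100a4, Pdgfra, Fap, Col1a2, Pi16, Col1a1 and Pdgfrb. The 6 remaining listed markers were at or near the floor and were not tested. Lum had 0 counts in all D4M libraries, Lox and Clec3b at most 3, Dcn a mean of 0.33 CPM, Dpt 0.16 and Thy1 0.55 CPM. Schwann and glial markers lay below in 7 of 12 cases (58.3%, against 15.7% of all tested genes). Egr2 alone lay above (8.3%), 3.35-fold over WT31. Mbp is among the 7 below by its log2 values only, since D4M had a mean of 0.91 CPM and WT31 0.68 CPM, and replicate 1 alone had 4.32 CPM. Of 11 listed endothelial markers 4 were tested, and 0 lay above and 0 below. Tie1, Emcn, Cldn5 and Erg had at most 3 counts in every D4M library. Cdh5 had a mean of 0.16 CPM in D4M, Tek 0.13 and Cldn5 0.0089 CPM, although Flt1 and Cd93 were high. Ptprc, the common leucocyte gene, had 0.053 CPM, and the keratin genes Krt5 and Krt14 had at most 3 counts in any D4M library. Of 4 tested leucocyte markers, the monocyte and macrophage genes Cd14 (4.61 CPM, 2.39-fold over HCmel12) and Cd68 (8.01 CPM, 2.22-fold over B16F10 luc2) lay above, and Fcer1g and Lyz2 below. Of 2 tested keratinocyte markers, Krt10 lay above (2.47 CPM, 1.24-fold over WT31). Smooth muscle and pericyte markers lay above in 2 of 6 tested cases (Acta2 and Cspg4) and below in 2 (Mcam and Des). Acta2, a smooth muscle actin, had 10.5, 18.7, 2.85, 3.82 and 13.5 CPM in D4M and at most 0.78 CPM elsewhere. Myh11 and Cnn1 had at most 3 counts in every D4M library. As for the melanocyte markers by which the label would be checked, Mitf and Pax3 were present at reduced levels and Sox10, Dct, Tyr, Tyrp1, Pmel, Mlana, Kit and Ednrb were under 0.5 CPM in D4M replicates 2 to 4. Replicates 1 and 5 exceeded that for some of them, with 10.7 and 1.19 CPM of Dct, 8.78 and 0.72 of Pmel and 2.07 and 0.51 of Sox10. In bulk RNA, fewer cells of a type and less RNA per cell cannot be told apart.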

How the data were processed

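RNA of 25 cultures was sequenced (5 lines, 5 replicates each). Per the labels, the authors trimmed reads with Trim Galore (version 0.6.4) and quantified transcripts with kallisto against GRCm38.p6. The labels give version 0.4.6 of kallisto, and the annotation release and the strand setting were not given in the sources used here. The deposited values are estimated counts per gene, not normalised, and the authors' TPM, which were used as an alternative for 24 libraries (all but D4M replicate 1). The tables held 55385 genes, of which 55144 had a symbol.

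Estimated counts were filtered with edgeR's filterByExpr (15247 genes kept), scaled with TMM and fitted with limma-voom, with a mean for each line (R 4.3.3, limma 3.58.1, edgeR 4.0.16). They were rounded only for edgeR's quasi-likelihood test and for DESeq2. Adjusted p-values are Benjamini-Hochberg values over all tested genes of a comparison. Folds are ratios of mean CPM after each line mean was raised to 3 counts (0.114 to 0.133 CPM per library), and "at least" marks a line with at most that count. Depth was 24199083 to 25843286 counts per library. On simulated counts with 200 changed genes among 14620, 195 were recovered and 0 of 14420 unchanged genes were called. In the data 72.5% to 77.7% of the tested genes differed in each comparison, far more than in the simulation. The simulation therefore checks that the procedure runs and gives no rate of false calls for these data.

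Named genes were the 12 with the largest ratio to the nearest line in each direction, up to 4 per list and direction, and a fixed set of lineage, driver and receptor genes. The members and the 39 gene lists were chosen with earlier results of these data known. A gene outside this rule is given with a remark on that, or only as a member of a list or run. Alternatives were DESeq2's size factors, library size alone, edgeR's quasi-likelihood test, DESeq2 (1.42.0), no filter, log2(TPM + 1), only 2 lines per fit, stricter thresholds, the replicate block and leaving out each library. Results for a few genes are not reported here. Promoter sequences came from RefSeq (GRCm38.p6).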

Additional observations from a re-analysis of the deposited data

Results flagged for a closer look

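Among 29 genes described per library, the values of each line were checked for a single library far from its 4 sisters (Dixon's ratio over 0.71), and 14 of 81 groups tested had one. Chance flags about 1 in 20 groups. The cause was not tested for any of them.

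D4M replicate 1 stood apart in pigment lineage genes, with 0.806 CPM of Tyr (0 to 0.172 in its sisters), 10.7 CPM of Dct (0.0906 to 1.19), 8.78 CPM of Pmel (0.267 to 0.724) and 2.07 CPM of Sox10 (0 to 0.511). The same library held the trace of another line's RNA. All 4 values lay far below every library of the other lines. D4M replicate 2 had 99.2 CPM of Twist1, against 70.6 to 78.6 in its sisters.

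HCmel12 replicate 4 stood apart in 6 genes. It had 30.1 CPM of Tyr (6.31 to 9.13 in its sisters), 5.05e+03 CPM of Dct (2.35e+03 to 2.6e+03), 1.17 CPM of Ifi44 (0.0797 to 0.241), 5.69 CPM of Oasl2 (0.73 to 1.75), 68.8 CPM of Vegfa (26.1 to 34.2) and 184 CPM of Trp53 (234 to 247). Of these 6 values, only that of Vegfa reached the range of the D4M libraries.

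The 3 remaining values belonged to single libraries of other lines. Cdkn2a was 3.23 CPM in WT31 replicate 2 (2.65 to 2.81 in its sisters), Axl 53.2 CPM in WT31 replicate 1 (24.2 to 30.4) and Ppargc1a 34.2 CPM in RET replicate 3 (46.7 to 50.3).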

How the results depend on the processing

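Of 216 counts of changed genes under an alternative, 210 stayed within 1.5 times the reported count. The 6 others required an absolute log2 difference of at least 1, which left 5404 genes changed against HCmel12, 5975 against RET, 5593 against WT31, 6069 against B16F10 luc2, 1605 above each line and 1045 below each. Leaving out 1 library at a time gave 10910 to 11285 genes against HCmel12, 11624 to 12044 against RET, 11474 to 11922 against WT31, 11720 to 12159 against B16F10 luc2, 3050 to 3168 above and 2272 to 2430 below. DESeq2 gave 3120 above and 2366 below, and edgeR's quasi-likelihood test 3005 and 2466. Without a filter 4133 lay above and 2378 below, of 34301 genes tested. With the replicate block, 3020 lay above and 2452 below. Same-numbered libraries of different lines did not deviate together (median correlation 0, over 0.1 in 1 of 50 pairs), and 6 of 25 libraries correlated best with their own number, so the numbers were not taken as pairs. Of 1296 list counts, 1275 stayed within 1.5 times. Library size alone left 5 of 10 p53 targets and 4 of 7 amino acid stress genes above and placed 11 rather than 7 cell cycle genes below.

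Of 222 named genes that lay above or below each line, library size alone lost 7, log2 TPM 16 and the threshold of 1 on the log2 scale 44. A direction turned in 3 values: Krt10 against WT31 with log2 TPM (-0.12), Mbp against WT31 with edgeR's quasi-likelihood test (0.37) and Srp72 against RET with library size alone (-0.01). The cause was not tested. Depth limits values under 0.133 CPM in D4M.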

Other observations

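Several further runs of neighbouring genes were called in 1 direction, chosen after their values were seen. On chromosome 14 a run of 8 genes above held Plac9a, Plac9b and 3 Tmem254 genes, which are near-identical copies whose reads the counting could split, so their single values are uncertain. On chromosome 6 a run of 6 genes below (48833818 to 49214957) held Tmem176a, Tmem176b, Gpnmb and Igf2bp3. On chromosome 4 the pigment gene Tyrp1 closed a run of 6 genes below.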
